A study of Mus musculus with 6 samples.

Results

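Around the portal vein of the liver lobule, hepatocytes carry a set of genes that sets them apart from those around the central vein. *Cyp2f2*, *Hsd17b13*, *Aldh1b1*, *Cdh1*, *Pigr* and *Ctsc* are 6 such periportal genes whose products lie outside amino acid metabolism, and they are described here in livers with and without hepatocyte *Tcf7l2*. They were taken by gene symbol from the 23282 genes of each count table, 1 row each. Liver RNA of 6 mice was sequenced, 3 per genotype, each library taken as 1 mouse. All mice were 12 weeks old and of strain C57BL/6 by the labels (C57BL/6N in the study's methods), and all were fasted for 24 h and then refed normal chow for 24 h. The wild-type mice were *Tcf7l2* f/f littermates, which carry the floxed alleles (loxP sites around exon 5) but no Cre. The knockout mice were *Alb-Cre;Tcf7l2* f/f, in which the albumin promoter drives Cre in hepatocytes. Whether the other liver cells, bile duct cells among them, kept *Tcf7l2* cannot be read from bulk libraries. An effect of Cre itself cannot be told apart from that of the deletion.

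Zonation of the lobule is set in large part by Wnt/β-catenin signalling, which is highest near the central vein. There it switches on pericentral genes through transcription factors of the TCF/LEF family, to which TCF7L2 belongs. Loss of β-catenin activity is known to let periportal programmes extend towards the central vein, and its excess pushes them back. The question put to these libraries was whether the periportal genes stood higher in knockout liver. Bulk libraries hold no position within the lobule, so a wider zone and more RNA per cell cannot be told apart, nor can fewer cells and less RNA per cell.

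Counts are given as CPM, counts per 1000000 after scaling library sizes with TMM factors, which centre most genes on an equal level in all libraries. *Tcf7l2* stood at 4.88, 6.13 and 6.85 CPM in wild-type libraries 7-2, 8-1 and 8-3, and at 3.31, 2.74 and 3.33 CPM in knockout libraries 7-2, 7-3 and 8-3. The groups did not overlap (log2 fold change −0.93, SE 0.19), and 9.08% of all tested genes were likewise lower in every knockout library. With library sizes alone, in place of TMM factors, the log2 fold change of *Tcf7l2* was −0.27 (SE 0.29). *Tcf7l2* missed the threshold of edgeR's quasi-likelihood test at an adjusted *p* of 0.0856, and its *p* from an exact permutation test on both sides was 0.1, which no design of 3 against 3 can go below. Reads were counted over the whole gene and not over the floxed exon. Libraries held 60619938 to 133384586 counts, of which genes with symbols beginning with *Mup* (major urinary proteins) took 31.7% to 54.3% in wild type and 18.5% to 28.7% in knockout. Over the 14076 genes that passed the filter on low counts, all 6 periportal genes among them, the median knockout over wild-type difference on the log2 scale was −0.017 with TMM factors and 0.61 with library sizes alone. Values are therefore given relative to the bulk of genes. Hepatocyte markers such as *Hnf4a* (233 ± 40.6 and 257 ± 22.7 CPM in wild type and knockout) were high in all libraries. The p-values of edgeR and DESeq2 set each difference against a spread between mice that was estimated in part over all genes.

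Knockout liver did not show a shared rise of the 6 genes. *Cyp2f2* was higher in every knockout library than in every wild-type library, *Ctsc* was lower in every knockout library after TMM scaling (though not with library sizes alone, where its log2 fold change was 0.047), and the other 4 overlapped between the genotypes. By edgeR, none of the 6 passed an adjusted *p* of 0.05 (0 higher, 0 lower), where 0.071% of all tested genes were called higher and 0.377% lower. Unadjusted *p* values were under 0.05 for 1 higher and 1 lower gene, *Cyp2f2* and *Ctsc* (6.7% and 6.76% of all tested genes). DESeq2 called 1 higher, *Cyp2f2*, and 0 lower (1.38% and 1.7%). Groups apart in the higher direction were seen in 1 of the 6 and in the lower direction in 1, against 10.2% and 9.08% of all tested genes, and with only 6 genes these shares cannot be told from that background. Of the 6 log2 fold changes 3 were positive and 3 negative with TMM factors, with a median of 0.086, and all 6 were positive with library sizes alone.

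**Figure D1:**
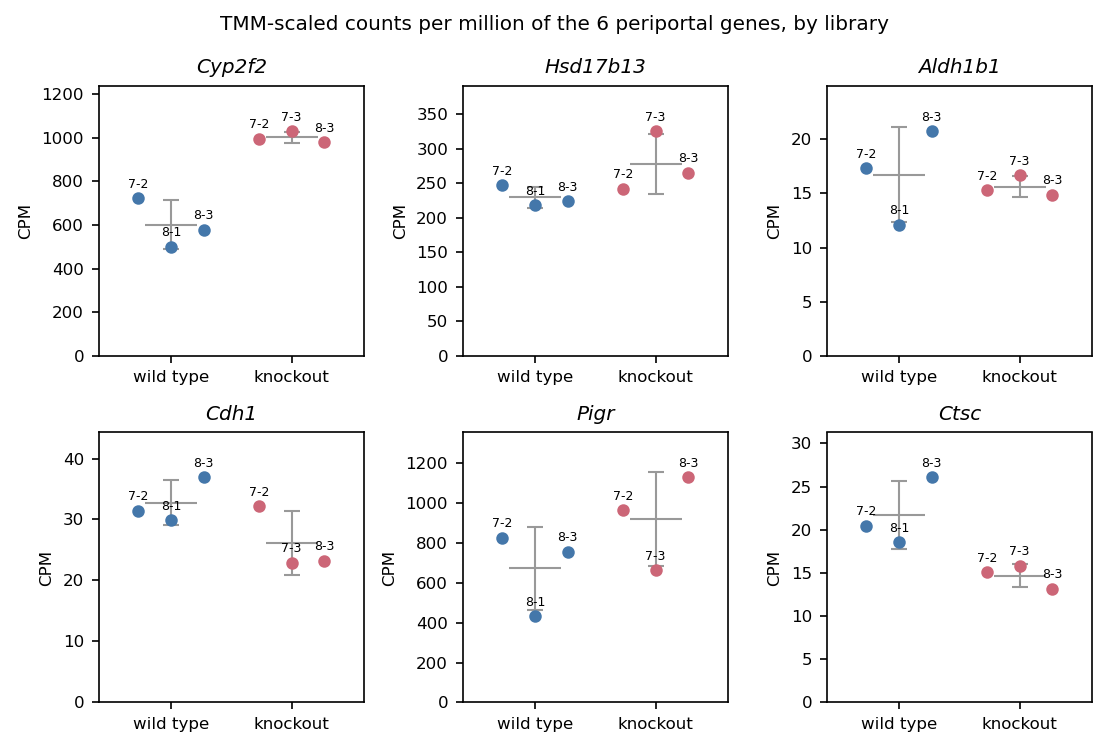
CPM (TMM-scaled counts per 1000000, vertical axes from 0) of the 6 periportal genes in each library, named by its label number, with wild type on the left and knockout on the right of each panel; grey lines are means with SD bars, *n*=3. The genotypes are apart in *Cyp2f2*, where knockout libraries sit near 1002 CPM, and in *Ctsc*, where they sit near 14.7 CPM (this gap closes with library sizes alone), and overlap in the other 4.

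*Cyp2f2* encodes a cytochrome P450 that oxidises naphthalene and other small aromatic compounds, and is one of the usual markers of periportal hepatocytes (NM_007817; chromosome 7, 27119955 to 27133660 of GRCm38.p6, the assembly of mm10, plus strand). It stood at 724, 502 and 579 CPM in wild-type libraries 7-2, 8-1 and 8-3, and at 996, 1032 and 979.9 CPM in knockout libraries 7-2, 7-3 and 8-3. All knockout values were above all wild-type values, and they lay close together while the wild-type values were spread. The means were 602 ± 113 and 1002 ± 26.5 CPM (mean ± SD, *n*=3 mice per genotype), 1.67-fold higher in knockout. The log2 fold change was 0.74 (SE 0.20, 95% interval 0.30 to 1.18), and 3.64% of all tested genes had a larger one. The gene missed the threshold of edgeR (adjusted *p*=0.162) and passed that of DESeq2 (adjusted *p*=0.0039). The label numbers begin with 7 or 8, and the log2 fold change was 0.49 among libraries 7 and 0.86 among libraries 8. Wild type is library 7-2 alone among libraries 7, and knockout is library 8-3 alone among libraries 8. A single library thus sets that side of each such value.

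*Hsd17b13* encodes a dehydrogenase on the surface of lipid droplets in hepatocytes, variants of which are linked to human fatty liver disease (NM_198030; chromosome 5, 103955442 to 103977388, minus strand). It stood at 247, 218 and 224 CPM in wild-type libraries 7-2, 8-1 and 8-3, and at 242, 326 and 265 CPM in knockout libraries 7-2, 7-3 and 8-3. Knockout library 7-2 lay below wild-type library 7-2, so the groups overlapped. The log2 fold change was 0.27 (SE 0.18, 95% interval −0.12 to 0.66, adjusted *p*=0.524 from edgeR), and the interval held both negative and positive values. The interval ended below a log2 fold change of 1.

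*Aldh1b1* encodes a mitochondrial aldehyde dehydrogenase that oxidises acetaldehyde and other aldehydes (NM_028270; chromosome 4, 45799022 to 45804608, plus strand). In wild-type libraries 7-2, 8-1 and 8-3 it stood at 17.3, 12.1 and 20.8 CPM, and in knockout libraries 7-2, 7-3 and 8-3 at 15.3, 16.7 and 14.9 CPM. All knockout values lay inside the wild-type range. The log2 fold change was −0.10 (SE 0.19, 95% interval −0.53 to 0.33, adjusted *p*=0.859 from edgeR), and its sign turned without wild-type library 8-3 (0.082) and with library sizes alone (0.48). No direction held across these settings.

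*Cdh1* encodes E-cadherin, the adhesion protein that joins epithelial cells and, in liver, periportal hepatocytes and bile duct cells (NM_009864; chromosome 8, 106603350 to 106670247, plus strand). It stood at 31.4, 29.9 and 36.9 CPM in wild-type libraries 7-2, 8-1 and 8-3, and at 32.2, 22.9 and 23.2 CPM in knockout libraries 7-2, 7-3 and 8-3. Knockout libraries 7-3 and 8-3 lay below all wild-type libraries, and knockout library 7-2 lay among them. The log2 fold change was −0.32 (SE 0.17, 95% interval −0.71 to 0.066, adjusted *p*=0.451 from edgeR) with TMM factors and 0.31 with library sizes alone.

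*Pigr* encodes the polymeric immunoglobulin receptor, which carries IgA across hepatocytes and bile duct cells into bile (NM_011082; chromosome 1, 130826684 to 130852249, plus strand). It stood at 827, 433 and 756 CPM in wild-type libraries 7-2, 8-1 and 8-3, and at 965, 662 and 1128 CPM in knockout libraries 7-2, 7-3 and 8-3. The genotypes overlapped, and the lowest wild-type and the highest knockout value both came from libraries 8. The log2 fold change was 0.45 (SE 0.29, 95% interval −0.19 to 1.09, adjusted *p*=0.517 from edgeR), with the widest interval of the 6 genes. Among libraries 7, with wild-type library 7-2 alone, it was −0.023, and among libraries 8, with knockout library 8-3 alone, it was 0.92.

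*Ctsc* encodes cathepsin C, a lysosomal peptidase that activates the serine proteases of immune cells and is made in macrophages as well as in hepatocytes (NM_009982; chromosome 7, 88278024 to 88315861, plus strand). It stood at 20.5, 18.6 and 26.0 CPM in wild-type libraries 7-2, 8-1 and 8-3, and at 15.1, 15.8 and 13.2 CPM in knockout libraries 7-2, 7-3 and 8-3. All knockout values were below all wild-type values. The log2 fold change was −0.56 (SE 0.16, 95% interval −0.93 to −0.20), and the gene missed the threshold of edgeR (adjusted *p*=0.189) and of DESeq2 (0.0813). With library sizes alone it was 0.047, so the lower level is one relative to other genes.

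Ratios between these genes within a library need no scaling, and some of them differed between the genotypes. Libraries 7-2, 8-1 and 8-3 of wild type held 35.3, 27.0 and 22.2 counts of *Cyp2f2* per count of *Ctsc*. Libraries 7-2, 7-3 and 8-3 of knockout held 66.0, 65.3 and 74.4. The groups were far apart, with a difference of 1.31 on the log2 scale. The count of *Cyp2f2* per count of *Cdh1* was 23.0, 16.8 and 15.7 in the wild-type and 30.9, 45.0 and 42.2 in the knockout libraries, in the same order. *Cyp2f2* per *Pigr* overlapped between the genotypes, at 0.875, 1.16 and 0.766 in wild type and 1.03, 1.56 and 0.868 in knockout. These ratios were chosen for display after the values of the genes were seen, and no test was made of them.

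**Figure D2:**
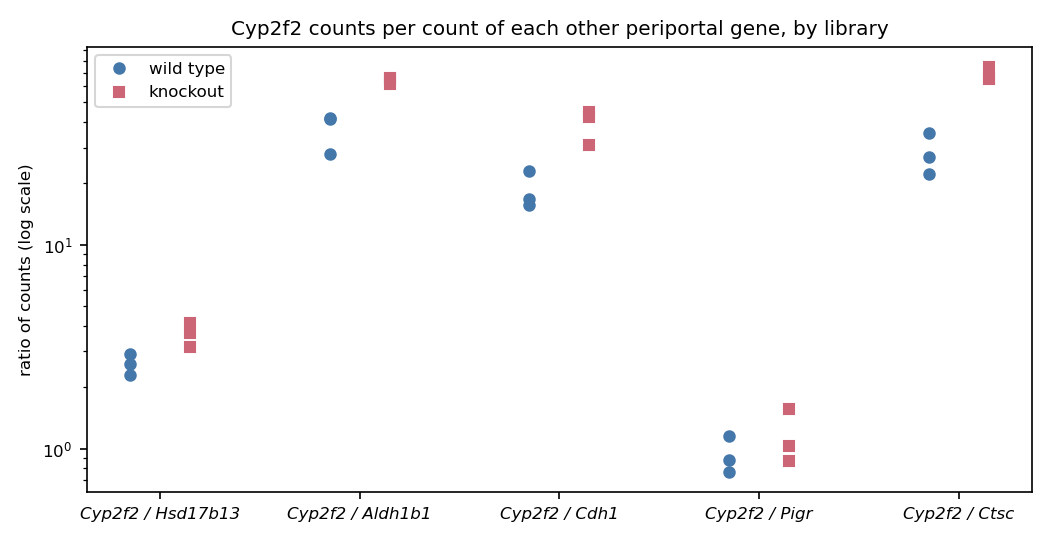
Counts of *Cyp2f2* divided by counts of each other periportal gene in the same library (vertical axis, log scale), with wild-type libraries as blue circles and knockout libraries as red squares, 3 each. Knockout libraries lie above wild-type libraries for all partners other than *Pigr*, and the gap is widest for *Ctsc*.

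Per length of transcript, the 6 genes fell into 3 abundant and 3 scarce ones in both genotypes. Divided by the length of the Ensembl canonical transcript, *Cyp2f2* led with 320 ± 59.9 CPM per kb in wild type and 533 ± 14.1 in knockout (mean ± SD, *n*=3). In wild type it was followed by *Hsd17b13* (175 ± 11.6 CPM per kb) and *Pigr* (173 ± 54.2), which overlapped each other but not *Cyp2f2*. *Ctsc* (8.05 ± 1.44 CPM per kb), *Cdh1* (7.39 ± 0.833) and *Aldh1b1* (6.88 ± 1.79) followed, each overlapping its neighbour. In knockout, *Pigr* (237 ± 61.0 CPM per kb) and *Hsd17b13* (211 ± 32.9) changed places but overlapped. *Aldh1b1* (6.42 ± 0.393), *Cdh1* (5.90 ± 1.19) and *Ctsc* (5.45 ± 0.504) came last, and again neighbours overlapped. Over single libraries, member counts ran from 1014 to 97216, so counting error was small beside the spread between mice.

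The promoters of *Cyp2f2*, highest against wild type, of *Ctsc*, lowest, and of *Hsd17b13*, which holds the most matches, are shown from RefSeq (GRCm38.p6), 5′ to 3′ on the strand of the gene. Those of *Cyp2f2* and *Hsd17b13* are the 250 bases before the start. The RefSeq start used for *Ctsc* lies inside its annotated gene, so only the first 189 bases of its window, up to the gene's first base, are printed. Capitals mark the TCF/LEF core CTTTG or its reverse complement CAAAG.

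Cyp2f2 (chr7:27119705-27119954, plus strand): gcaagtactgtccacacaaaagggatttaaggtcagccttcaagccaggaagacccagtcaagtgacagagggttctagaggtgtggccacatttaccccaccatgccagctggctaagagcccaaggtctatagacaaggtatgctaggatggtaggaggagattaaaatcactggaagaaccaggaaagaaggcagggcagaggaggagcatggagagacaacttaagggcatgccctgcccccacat

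Hsd17b13 (chr5:103977389-103977638, minus strand): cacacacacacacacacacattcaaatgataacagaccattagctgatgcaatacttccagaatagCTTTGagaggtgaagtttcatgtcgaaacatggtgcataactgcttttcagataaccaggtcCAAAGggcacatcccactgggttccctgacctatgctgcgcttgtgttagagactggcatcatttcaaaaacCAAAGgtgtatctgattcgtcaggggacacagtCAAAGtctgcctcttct

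Ctsc (chr7:88277835-88278023, plus strand): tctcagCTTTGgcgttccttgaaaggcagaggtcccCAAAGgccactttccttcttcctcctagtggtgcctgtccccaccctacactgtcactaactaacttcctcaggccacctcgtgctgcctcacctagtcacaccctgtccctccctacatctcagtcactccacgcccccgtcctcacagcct

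The 250 bases before the RefSeq start, whole also for *Ctsc*, were searched on both strands for CTTTGAT and CTTTGAA, forms of the TCF/LEF motif, for their shared core CTTTG, for CAAAGTCCA, a form of the HNF4A motif that contains the reverse complement of that core, and for the TATA box TATAAA. Promoters of 5 of the 6 genes were matched, all but that of *Cdh1*. CTTTGAT and CTTTGAA were found in 0 of the 5 (3.21% and 4.46% of 32851 promoters), CAAAGTCCA in 0 (0.384%) and TATAAA in 0 (12.4%). The core CTTTG was found in 3 of the 5 (48.6% of promoters), with 4 matches in *Hsd17b13*, 2 in *Aldh1b1* and 2 in *Ctsc*. *Cyp2f2* and *Pigr* held no match. These are matches of letters, and binding was not measured.

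*Cyp2f2* lies in a cluster of *Cyp2* genes on chromosome 7, and its neighbours there included 2 that were almost lost and none that was called higher. *Cyp2a5*, a pericentral coumarin hydroxylase 276.7 kb away (26835339 to 26843264), fell from 166 ± 26.7 to 0.382 ± 0.228 CPM (−8.77 on the log2 scale, SE 0.46, edgeR adjusted *p*=2.75e-05). *Cyp2a4*, 804.9 kb away and near-identical to *Cyp2a5*, so that reads aligned to both may be shared, fell by 9.42 on the log2 scale (edgeR adjusted *p*=9.51e-07). The nearest tested *Cyp2* gene, *Cyp2a12* at 83.1 kb, stood at 409 ± 83.3 and 492 ± 33.8 CPM (0.27, adjusted *p*=0.584), and *Cyp2a22* at 180.5 kb had 0.35 (adjusted *p*=0.554). Of the 25 tested genes within 1000000 bases of *Cyp2f2*, 2 were called lower and 0 higher, and 8 had a positive fold change. These neighbours were chosen by position after the value of *Cyp2f2* was seen. Within the same distance of the other 5 genes, 0 genes were called in either direction.

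Other periportal genes outside amino acid metabolism were split as well, with 8 positive and 5 negative fold changes. Of these 13 genes, edgeR called 0 higher and 2 lower, and DESeq2 1 higher and 2 lower. Unadjusted *p* values under 0.05 were found for the same numbers, 1 higher and 2 lower. The median log2 fold change was 0.057, against −0.017 for the tested genes as a whole, and its sign did not hold when libraries were left out (−0.044 without wild-type library 8-1, 0.23 without wild-type library 7-2). *Ang*, which encodes the ribonuclease angiogenin, fell from 209 ± 68.3 to 46.3 ± 21.9 CPM (−2.18, SE 0.35, adjusted *p*=0.0351). *Rnase4*, which encodes another secreted ribonuclease, fell from 299 ± 86.0 to 79.9 ± 31.7 CPM (−1.90, SE 0.31, adjusted *p*=0.0359). *Ang* and *Rnase4* share promoters and first exons, so their counts are not independent. Both missed the threshold without wild-type library 8-1 or 8-3 or knockout library 7-2 or 8-3 (adjusted *p* from 0.101 to 0.156 for *Ang* and from 0.106 to 0.172 for *Rnase4*). *Mfsd2a*, which encodes a transporter of lysophospholipids, stood at 7.82 ± 1.69 and 18.1 ± 4.77 CPM (1.21, adjusted *p*=0.0633 from edgeR and 8.83e-05 from DESeq2).

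Among 13 periportal genes of amino acid metabolism and the urea cycle, edgeR called 0 in either direction and DESeq2 called 1 higher and 0 lower, and the unadjusted *p* was under 0.05 for 1 higher and 0 lower genes. Here 12 of 13 fold changes were positive, where 6746 of all 14076 tested genes had a positive one. Every knockout library lay above every wild-type library in 3 of the 13, against 10.2% of all tested genes. The median of the 13 was 0.25 on the log2 scale, or 0.12 without wild-type library 8-1. *Gls2*, liver glutaminase, stood at 126 ± 9.25 and 211 ± 8.08 CPM (0.74, adjusted *p*=0.0877 from edgeR and 0.000171 from DESeq2). *Cps1*, the first enzyme of the urea cycle, had 0.31 (adjusted *p*=0.509), and *Agxt*, alanine-glyoxylate aminotransferase, 0.33 (adjusted *p*=0.492). *Gls2* thus had the same log2 fold change as *Cyp2f2*, to 2 decimals.

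On the opposite side of the lobule, of 23 pericentral genes and Wnt targets edgeR called 12 lower and 0 higher. DESeq2 called 16 lower and 1 higher, the same numbers as had an unadjusted *p* under 0.05. Their median log2 fold change was −1.56. *Sp5*, which had 0 counts in knockout, was also set to a floor of 3 counts over the group. It stayed below the median there, so the floor could not move the median. *Oat*, ornithine aminotransferase, fell from 149.6 ± 19.3 to 4.54 ± 1.53 CPM and the glutamate transporter gene *Slc1a2* from 67.0 ± 4.93 to 11.5 ± 1.07 CPM (adjusted *p*=2.75e-05 and 5.78e-05 from edgeR). The median fall of the pericentral list was larger than any difference among the 6 periportal genes, whose log2 fold changes ran from −0.56 to 0.74 with TMM factors.

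**Figure D3:**
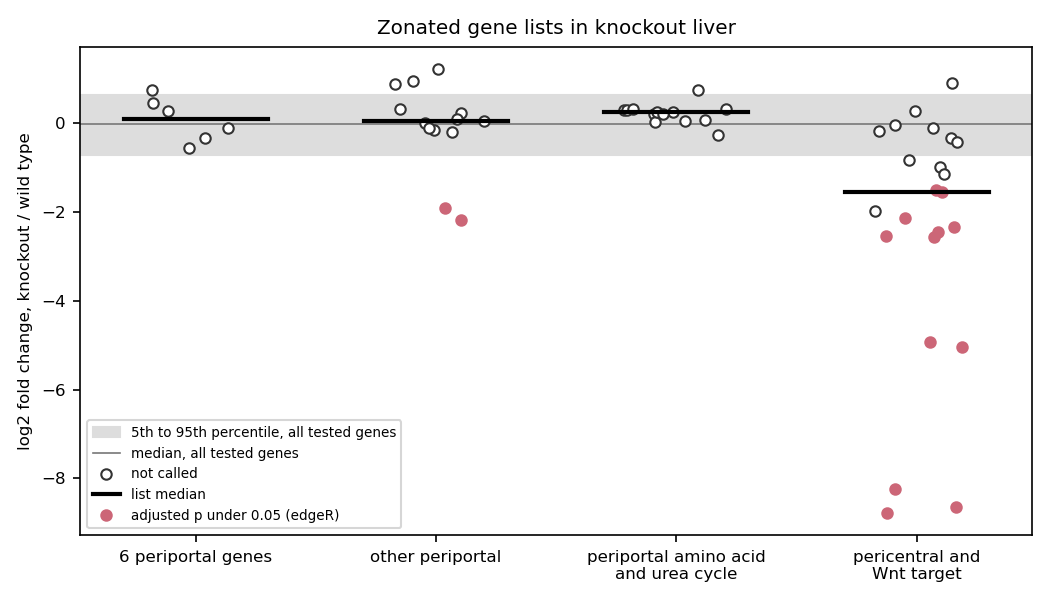
Log2 fold change of knockout over wild type (vertical axis) for each gene of 4 lists, with filled red points for genes called at an adjusted *p* under 0.05 by edgeR, open points for the rest, black bars for list medians and a grey band for the 5th to 95th percentile of all tested genes (−0.71 to 0.64). The periportal lists centre near 0 (medians 0.086, 0.057 and 0.25) and the pericentral list at −1.56, and *Sp5*, with no counts in knockout, is placed by the prior count used.

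Relatives of the 6 genes were read beside them. Of 11 other aldehyde dehydrogenase genes, 1 was called lower and 0 higher by edgeR, with a median of −0.017. The one called was *Aldh3a2*, fatty aldehyde dehydrogenase, which fell from 52.5 ± 19.1 to 10.5 ± 0.671 CPM (−2.32, SE 0.24, adjusted *p*=0.00325). *Aldh6a1* had 0.36 (adjusted *p*=0.325) and *Aldh5a1* 0.34 (adjusted *p*=0.357). Of 8 relatives of *Hsd17b13*, edgeR called 0 and DESeq2 2 lower and 0 higher, and the unadjusted *p* was under 0.05 for 3 lower and 0 higher genes. Of these 8 fold changes 3 were positive and 5 negative, with a median of −0.11 and a range from −0.91 to 0.88. The mitochondrial *Hsd17b10* had −0.91 (adjusted *p*=0.0856), *Hsd17b2*, which inactivates sex steroids, −0.82 (adjusted *p*=0.142), and *Hsd17b7*, of cholesterol synthesis, −0.74 (adjusted *p*=0.282).

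Of 9 other lysosomal cathepsins, edgeR and DESeq2 called 0, with 0 unadjusted *p* values under 0.05, and their log2 fold changes ran only from −0.16 to 0.24, with *Ctso* at 0.19, *Ctsf* at 0.24 and *Ctsd* at −0.16. *Ctsc*, at −0.56, lay below all 9 with TMM factors, in a comparison that was not tested. Of 10 genes of cadherin adhesion and tight junctions, edgeR and DESeq2 called 0, and the unadjusted *p* was under 0.05 for 1 higher and 0 lower genes. That one was *Tjp1*, which encodes the scaffold protein ZO-1 (0.43, adjusted *p*=0.197). The claudin genes *Cldn1* and *Cldn3* had −0.53 (adjusted *p*=0.475) and −0.29 (adjusted *p*=0.521).

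Markers of other liver cells were read beside *Cdh1*, *Pigr* and *Ctsc*, which those cells also express. For bile duct cells, 8 of 10 markers were tested, edgeR and DESeq2 called 0, and the unadjusted *p* was under 0.05 for 1 lower and 0 higher genes. With TMM factors 7 of the 8 fold changes were negative (median −0.33, or 0.27 with library sizes alone, −0.13 without wild-type library 7-2, and −0.60 when knockout library 7-3 was left out). The summed level ran from 37.4 to 59.7 CPM in wild type and from 34.6 to 41.3 CPM in knockout. The keratin genes *Krt7* (0.630 ± 0.181 and 0.269 ± 0.110 CPM) and *Krt19* (1.38 ± 0.921 and 0.764 ± 0.107 CPM) were scarce beside *Cdh1* at 32.7 ± 3.69 and 26.1 ± 5.28 CPM, and *Sox9* had 0.32 on the log2 scale. None of the markers was at 0 in all libraries. Of 14 Kupffer cell and macrophage markers, edgeR and DESeq2 called 0, and the unadjusted *p* was under 0.05 for 2 lower and 0 higher genes. With TMM factors 11 fold changes were negative (median −0.22, or 0.41 with library sizes alone, −0.10 without wild-type library 8-1 and 0.088 among libraries 7). The summed level ran from 106 to 138 CPM in wild type and from 105.5 to 111 CPM in knockout. *Cd68* had −0.86 (adjusted *p*=0.237), *Marco*, a scavenger receptor, −0.95 (adjusted *p*=0.279) and *C1qb* −0.33 (adjusted *p*=0.446). The part of these cells in the means of *Cdh1* and *Ctsc* was not tested.

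Sinusoidal endothelial markers had positive fold changes in 12 of 12 genes (median 0.36), with 0 called by edgeR or DESeq2 and unadjusted *p* values under 0.05 for 3 higher and 0 lower genes. They were *Stab1* at 0.40, *Bmp2* at 0.58 and *Clec4g* at 0.36. Of 9 stellate cell markers edgeR called 0 (1 higher without wild-type library 7-2) and DESeq2 4 higher and 0 lower, and the unadjusted *p* was under 0.05 for 6 higher and 0 lower genes. The median of these 9 was 0.76, or 0.33 among libraries 7, with 7 fold changes positive and 2 negative (the lowest −0.090). Those of smallest *p* were *Dcn* at 0.98, *Reln* at 0.90 and *Colec11* at 0.91. Lymphocyte and neutrophil markers were scarce, each at 2.77 CPM or less in every library, and 2 of 12 were at 0 throughout. Their summed level was 2.17 to 5.67 CPM in wild type and 2.04 to 5.41 CPM in knockout. *Cd3g*, *S100a8* and *Jchain*, the last encoding the chain that binds IgA to the *Pigr* product, were each under 1 CPM in the mean of either genotype. Their part in *Pigr* was not tested. Of 8 hepatocyte markers edgeR called 0 and DESeq2 1 lower, the one gene with an unadjusted *p* under 0.05, and the median was −0.026. That gene, *Fga* of fibrinogen, had −0.93 (adjusted *p*=0.197), *Cebpa* 0.42 (adjusted *p*=0.508) and *Hnf4a* 0.14 (adjusted *p*=0.764).

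Over the 6 libraries, the log2 CPM of the genes did not move as one group. Pearson's r ran from −0.80 between *Hsd17b13* and *Cdh1* to 0.78 between *Cdh1* and *Ctsc*, with 0.77 between *Cyp2f2* and *Hsd17b13* and 0.69 between *Cyp2f2* and *Pigr*. With the mean of each genotype taken out, *Aldh1b1* and *Ctsc* went together most (r 0.87). These are descriptions over 6 points that share scaling factors. Among 9482 other genes with a mean log2 CPM above 1, the pattern most like that of *Cyp2f2* was seen in *Mxi1* (r 1.00 to 2 decimals), *Hnmt* and *Fbxo3* (0.99 each). *Mroh2a* (0.99), *Vps26a* and *Naa16* (0.98 each) were most like *Hsd17b13*. *Gm6981* (0.99), *Gm2002* and *Tmem234* (0.97 each) were most like *Aldh1b1*. *Anapc4*, *Shkbp1* and *Pold2* (0.99 each) were most like *Cdh1*. *Eif4g1* (1.00), *0610031O16Rik* and *Bag4* (0.99 each) were most like *Pigr*, and *Ppa1*, *Acer3* (0.99 each) and *2200002D01Rik* (0.98) most like *Ctsc*. With so many candidates over 6 libraries, values near 1 are found for every member.

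The directions of the 6 genes rested on the scaling for 3 of them. With library sizes alone, in place of TMM factors, *Aldh1b1*, *Cdh1* and *Ctsc* had positive log2 fold changes (0.48, 0.31 and 0.047), all below the 0.61 of the median gene under that scaling. *Cyp2f2*, *Hsd17b13* and *Pigr* stayed above the median gene, at 1.32, 0.87 and 1.03. Leaving out each library in turn, *Cyp2f2* ran from 0.63 to 0.90 and *Ctsc* from −0.66 to −0.41. *Hsd17b13* ran from 0.14 (without knockout library 7-3) to 0.36, *Cdh1* from −0.50 (without knockout library 7-2) to −0.23, and *Pigr* from 0.22 (without wild-type library 8-1) to 0.64. None of the 6 was called by edgeR with any 1 library left out.

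**Figure D4:**
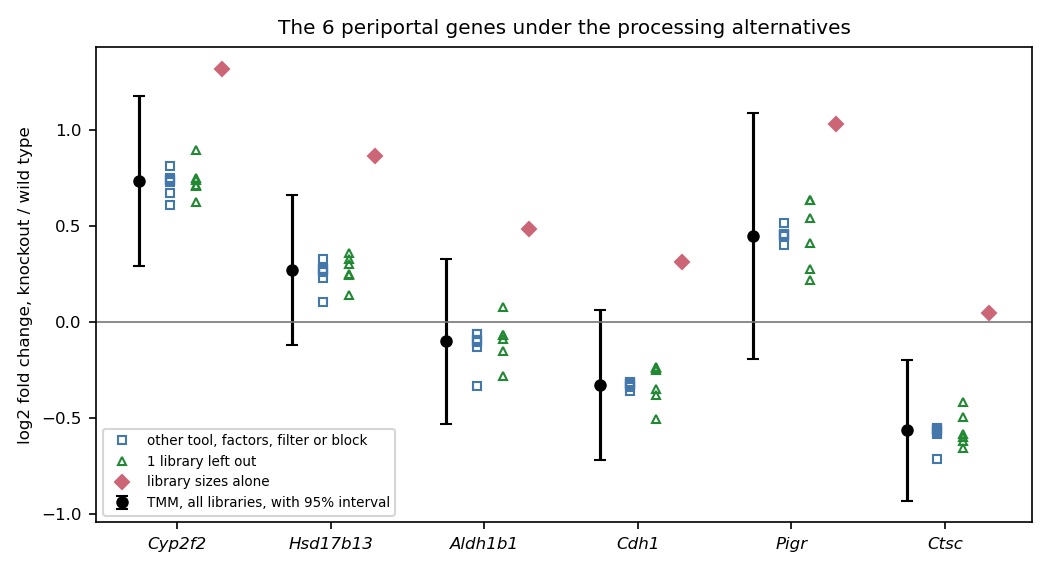
Log2 fold change of knockout over wild type (vertical axis) for the 6 periportal genes: black points with 95% interval bars for TMM scaling with all libraries, blue squares for other tools, factors, filters or a block, green triangles with 1 library left out, and red diamonds for library sizes alone; values within label numbers are not drawn. *Cyp2f2* lies above 0 throughout, and the red diamonds of *Aldh1b1*, *Cdh1* and *Ctsc* lie above 0 while nearly all their other points lie below.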

How the data were processed

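Liver RNA of 3 wild-type and 3 knockout mice was made into libraries with a directional kit. The authors deposited raw counts per gene (23282 rows per library), from unique and multiple alignments counted with Bedtools 2.25.0. The submitters' processing notes name TopHat and mm10, and what was used for annotation, aligner version and strand is not given in the sources used here. Quantile normalisation, part of the study's methods, is not in the deposited counts. Since multiple alignments were counted, related genes can share reads.

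Genotypes were compared in R 4.3.3 by the quasi-likelihood test of edgeR 4.0.16, with TMM factors. The filterByExpr function (at least 10 counts in enough libraries, 15 in total) left 14076 genes, all 6 described among them. limma was version 3.58.1. Adjusted *p* are Benjamini-Hochberg values over all tested genes, called under 0.05. Intervals are unadjusted. DESeq2 1.42.0 was an alternative. The fit was tested on simulated data. No libraries were copies of each other (smallest chi-square per degree of freedom 188). Transcript lengths are those of GENCODE M39, and positions and promoters those of RefSeq on GRCm38.p6. The table lists *Hsd17b8* under the older symbol *H2-Ke6*.

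The genes and lists were chosen with earlier results of these data known. Named genes are the 6, *Tcf7l2*, up to 3 genes per list by smallest *p*, and the 3 genes with the highest correlation with each of the 6. The *Cyp2* neighbours and *Sp5* were named after their values were seen. The lists were other periportal genes, periportal amino acid genes, pericentral genes, aldehyde dehydrogenases (*Aldh1a1* is also in the pericentral list), *Hsd17b* genes (*Hsd17b6* is also in the periportal list), cathepsins, cadherin adhesion, and markers of hepatocytes, bile duct cells, macrophages, endothelium, stellate cells, lymphocytes and neutrophils. Alternatives were other factors, tools and filters, scaling without *Mup* genes, each library left out, and the label number as a block. Reads carry no molecular identifiers.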

Additional observations from a re-analysis of the deposited data

How the results depend on the processing

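In 18 alternatives, *Cyp2f2* and *Hsd17b13* kept positive log2 fold changes (0.49 to 1.32 and 0.11 to 0.87), and *Pigr* did in 17. With library sizes alone *Aldh1b1* (0.48), *Cdh1* (0.31) and *Ctsc* (0.047) turned positive, *Cyp2f2* was called (1.32, adjusted *p*=0.021 from edgeR), 2936 genes were higher and 88 lower, and list medians were 0.62 for other periportal, 0.84 for periportal amino acid and −0.98 for pericentral genes. The median of all tested genes was then 0.61. *Aldh1b1* ran from −0.28 to 0.082 with 1 library left out. DESeq2 called *Cyp2f2* (0.74) and *Tcf7l2* (−0.92), 194 genes higher and 239 lower. Limma on quantile-normalised counts called 4 higher and 27 lower, with a pericentral median of −1.44. Limma-voom called 6 higher, and 23 were higher without a filter. Leaving out 1 library gave 3 genes higher (without wild-type 8-1 or 8-3) to 18 (without wild-type 7-2) and 21 lower (without wild-type 8-1) to 69 (without wild-type 7-2), and at most 35 lower without any other library. The pericentral median then ran from −1.65 to −1.45 and the periportal amino acid median from 0.12 (without wild-type 8-1) to 0.30. Within libraries 7, *Cyp2f2* had 0.49, *Pigr* −0.023, *Tcf7l2* −0.69 and the pericentral median was −1.64, and within libraries 8 *Pigr* had 0.92. Values within libraries 7 rest on wild-type library 7-2 alone and those within libraries 8 on knockout library 8-3 alone.

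Genotypes shared 2 label numbers, and since the labels do not say what the numbers stand for, they were not taken as pairs. Deviations of libraries with a shared number had r of 0.0079 and −0.0069. Libraries with different numbers ran from −0.11 to 0.11. With 3 libraries per genotype these values cannot settle whether the numbers are pairs. A replicate block on the leading number gave 6 genes higher and 33 lower, and *Ang* and *Rnase4* were no longer called (adjusted *p*=0.107 each from edgeR), as with quantile normalisation (0.149 and 0.168). A replicate block on the shared numbers, with 4 libraries, gave 15 higher, 33 lower and a periportal amino acid median of 0.094, and called *Ang* and *Rnase4* (adjusted *p*=0.0203 and 0.0172). The median of other periportal genes was −0.096 and −0.15 under these blocks. *Cyp2f2* had 0.67 and 0.61 under these blocks, uncalled. The cause of these shifts was not tested. Calls of *Cyp2a5*, *Cyp2a4*, *Oat*, *Slc1a2* and *Aldh3a2* held with each library left out. With 3 mice per genotype and TMM factors, the groups overlapped in *Hsd17b13*, *Cdh1* and *Pigr*. The interval of each of these log2 fold changes held both negative and positive values.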
